A study of Homo sapiens with 6 samples.

Results

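Tight junctions seal the space between neighbouring epithelial cells at their apical border. Their membrane proteins (claudins, the MARVEL-domain proteins occludin, tricellulin and MARVELD3, and the immunoglobulin-type junctional adhesion molecules) are held on the inner side of the membrane by scaffold proteins, chiefly the ZO proteins and the cingulins, which tie them to actin and to regulators of small GTPases. PAR3, a polarity scaffold, binds junctional adhesion molecules and helps to set up the apical border. 9 genes of this machinery are described here out of 20347 gene symbols with values. They were chosen by gene symbol and role, with earlier results of these data known. They are the scaffold genes *TJP1* (ZO-1), *TJP3* (ZO-3), *CGN* (cingulin) and *CGNL1* (paracingulin), the membrane genes *OCLN* (occludin), *MARVELD2* (tricellulin), *MARVELD3* and *F11R* (JAM-A), and the polarity scaffold gene *PARD3* (PAR3).

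RNA-seq was done on PaTu8988t, an established human cell line of pancreatic ductal adenocarcinoma (PDAC), grown in high glucose DMEM with fetal bovine serum. The 3 control replicates carried a CRISPR vector with an unspecific guide, and the 3 *SAMD1* KO replicates were clonally independent lines selected after CRISPR/Cas9 editing of *SAMD1*, so each KO library stands for 1 clone. SAMD1 is a chromatin protein that binds unmethylated CpG-rich promoters through a winged-helix domain. The comparison asks which junction genes differ in level between the KO clones and control cells. The study does not describe the control replicates as independent clones. Effects of *SAMD1* loss and differences that come with deriving single clones therefore cannot be fully told apart.

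Library depth ran from 35589477 to 45172216 reads, and values are normalized counts, that is reads divided by 1 size factor per library. *SAMD1* itself had 2231, 2382 and 2299 normalized counts in control replicates 1 to 3 and 874, 1082 and 825 in clones 1 to 3, so its RNA was lower in every clone but not absent. Of 8 epithelial markers 7 passed the filter on low values, with *KRT8* at 32903 or more normalized counts in every control library, while *KRT19* was at 0 and *CDH1* had a control mean of 38.3. The epithelial marker sum was 63627 to 66838 in control cells and 68940 to 110460 in the clones. Most of it came from *KRT8* and *KRT18*, with control means of 34191 and 29567. A call of higher was made for 3 of the markers (*KRT7*, *KRT18* and *SOX9*). The study lists *SOX9* among genes related to epithelial-mesenchymal transition. The fibroblast marker sum was 164 to 166 against 148 to 443 with *DCN* and *LUM* at 0, the immune sum 357 to 377 against 251 to 334 with *CD3E* at 0, and the endothelial sum 80.1 to 87.1 against 35.6 to 87.2. The part of these shifts in the results was not tested.

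*CGN* was the member with the clearest difference, and *TJP1* was the only other one with an adjusted p below 0.05. A gene was called when its log2 fold change was beyond 0.5 with an unadjusted p below 0.01 (limma, two-sided). All 9 genes passed the filter of a mean of at least 10 normalized counts, and 1 of them, *CGN*, was called lower, against 2.08% of the 12773 genes tested (7.85% were called in either direction). None was called higher (0 also with edgeR and with DESeq2), against 5.77% of all tested genes. At an unadjusted p below 0.05 in limma, 4 of the 9 passed (*CGN*, *TJP1*, *MARVELD2* and *F11R*) and 0 of these were higher. Of all tested genes, 13.5% were lower at that level, and the share that was higher is not given here. With an adjusted p below 0.05 as the criterion, 2 of the 9 were lower and 0 higher, against 4.7% and 8.32% of all tested genes. The control and KO libraries did not overlap for 3 of the 9, all lower in KO cells (*CGN*, *TJP1* and *MARVELD2*), where 37.8% of all tested genes were without overlap, 18.6% lower and 19.2% higher. The median log2 fold change of the 9 genes was -0.32, against -0.006 for all tested genes. Because the genes were chosen with earlier results of these data known, these shares and medians describe them and are not a test. The study had already reported *TJP1* as lower in KO cells. With 3 libraries on each side the exact permutation test stops at p = 0.1, so each call rests on limma. The labels do not say that the control replicates were separate cultures, so for them the p-values may reflect technical spread only.

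**Figure D1:**
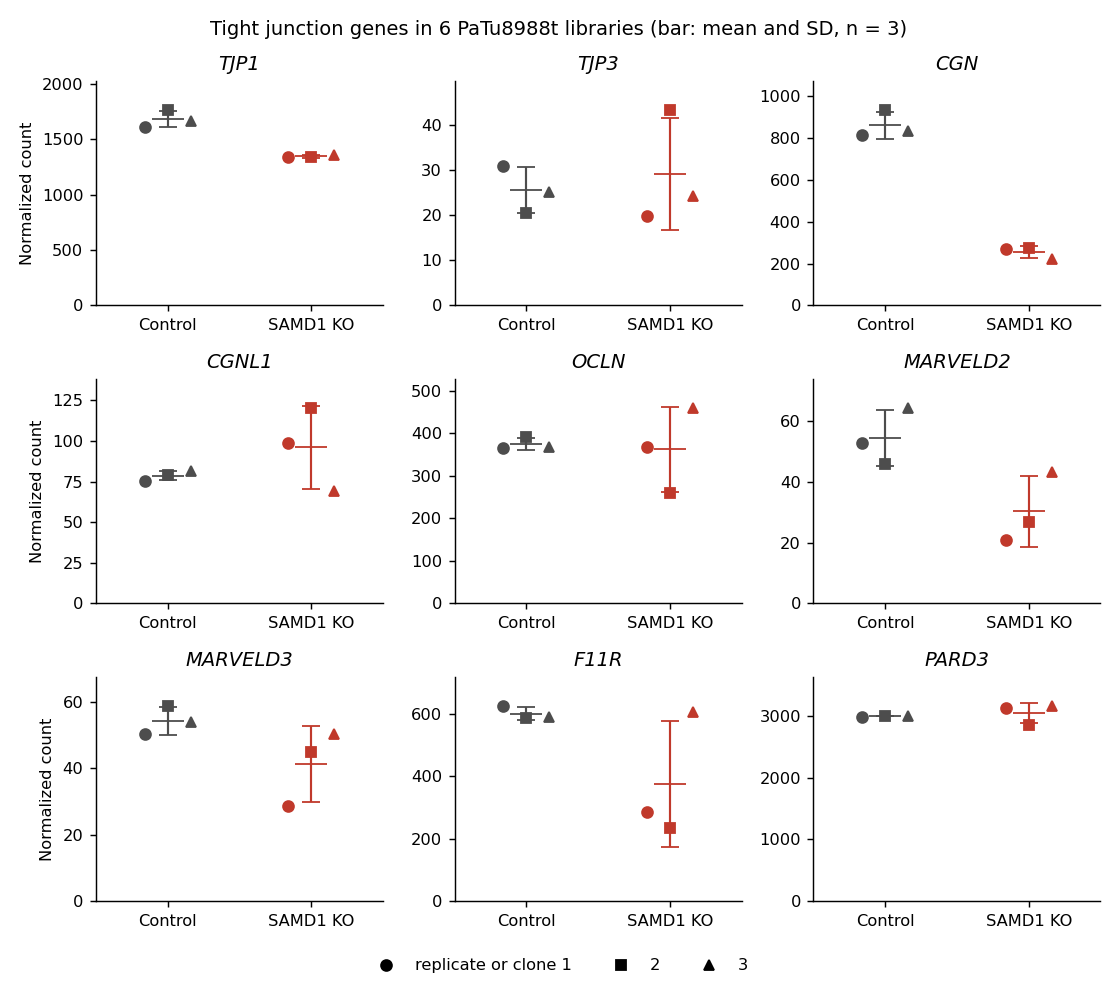
Normalized counts of the 9 genes in each of the 6 libraries, 1 panel per gene, each with a y axis from 0; points are single libraries (control replicates 1 to 3 in grey and *SAMD1* KO clones 1 to 3 in red), and bars are the mean and SD of 3. *CGN* lies at 276 or less in every clone and at 811 or more in every control library, and *F11R* lies at control level in clone 3 alone.

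The promoters of *CGN* and *TJP1* are shown because these are the members that passed a test, and because SAMD1 is known to bind promoters rich in CpG with a preference for GCGC. The sequences are the 250 bases before the transcript start from RefSeq (GRCh38.p14), 5′ to 3′ on the strand of the gene, with each GCGC in capitals. The *CGN* window is chr1:151511137-151511386 on the plus strand, the *TJP1* window is chr15:29969050-29969299 on the minus strand at the outermost start of that gene, and neither overlaps an exon. The *CGN* window lies inside the longer extent of the gene in GENCODE 44, in an intron, and the *TJP1* window lies upstream of its gene.

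CGN: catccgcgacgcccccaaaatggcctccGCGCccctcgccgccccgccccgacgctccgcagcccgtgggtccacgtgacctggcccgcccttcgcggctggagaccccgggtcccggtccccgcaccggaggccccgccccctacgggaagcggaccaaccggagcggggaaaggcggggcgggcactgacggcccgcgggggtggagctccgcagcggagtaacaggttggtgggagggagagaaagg
TJP1: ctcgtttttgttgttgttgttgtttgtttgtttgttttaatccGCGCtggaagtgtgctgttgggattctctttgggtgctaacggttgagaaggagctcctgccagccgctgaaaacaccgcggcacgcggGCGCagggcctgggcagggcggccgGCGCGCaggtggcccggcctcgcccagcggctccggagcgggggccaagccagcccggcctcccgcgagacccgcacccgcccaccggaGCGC

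The *CGN* window held 1 GCGC and 32 CpG, and the *TJP1* window shown held 5 GCGC, overlapping matches counted, and 26 CpG. The other windows of *TJP1*, at starts further inside the gene, held 1, 1 and 0 GCGC and 27, 19 and 2 CpG. Windows of tested genes held a median of 2 GCGC and 20 CpG, and 75.6% of those 15232 windows had at least 1 GCGC, against 53.4% of all 35116 windows. GCGC reads the same on both strands. Windows were found for 6 of the 9 genes, 11 windows in all, and 8 of them had a GCGC. A match is only a string of letters, and binding was not measured in these libraries. The study mapped SAMD1 binding in PaTu8988t cells by ChIP-seq in other libraries, which were not used here. It describes SAMD1 as a repressor that binds particularly strongly at genes that rise in KO cells, whereas *CGN* and *TJP1* were lower. Whether SAMD1 binds the windows shown was not tested.

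*CGN* encodes cingulin, a cytoplasmic protein that binds ZO-1 and links the junction to actomyosin and to regulators of small GTPases. The gene (ENSG00000143375, chr1:151510510-151538692, plus strand, GENCODE 44 on GRCh38) had 811, 930.5 and 833 normalized counts in control replicates 1 to 3, against 271, 276 and 222 in clones 1 to 3. The highest clone was thus far below the lowest control library. Control cells averaged 858 ± 63.6 (SD, n = 3) and the clones 256 ± 29.6 (SD, n = 3), which is 3.35-fold lower. In bulk RNA, fewer cells with the transcript and less of it in each cell cannot be told apart. Its log2 fold change was -1.74 (SE 0.11, 95% interval -2.01 to -1.48, adjusted p = 0.000376, limma), and the clones taken one by one were at -1.66, -1.63 and -1.94. It ranked 28 by p among all tested genes and 5 among those that were lower. The call held in 6 of 6 fits that left out 1 library, with log2 fold changes from -1.80 to -1.64. The median difference of its neighbours on the chromosome was 0.064, 0.0005 and 0.032 in clones 1 to 3, and the log2 fold change with that median removed was -1.77.

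*CGNL1* encodes paracingulin, a relative of cingulin found at tight and adherens junctions. The gene (ENSG00000128849, chr15:57375967-57550717, plus strand) had 75.5, 79.3 and 81.3 normalized counts in control replicates 1 to 3, against 98.9, 120 and 69.3 in clones 1 to 3. Clones 1 and 2 lay above all control libraries and clone 3 lay below them. Its log2 fold change was 0.25 (SE 0.22, 95% interval -0.26 to 0.76, adjusted p = 0.485, limma), so a rise or a fall of moderate size could not be told from no difference. The value was 0.073 without clone 2 and 0.47 without clone 3 (adjusted p = 0.838 and 0.101, limma). Within each library the ratio of *CGNL1* to *CGN*, which does not depend on the size factor, was 0.0931, 0.0852 and 0.0977 in control cells and 0.365, 0.436 and 0.312 in the clones. On the log2 scale the ratio averaged -3.44 ± 0.10 (SD, n = 3) without and -1.44 ± 0.24 (SD, n = 3) with the knockout, and the groups did not overlap (exact permutation p = 0.1, two-sided, the smallest possible with 3 against 3). *CGN* remained the more abundant of the pair in every clone, also per kb of exon, where the ratio was 0.238 to 0.333 in the clones and 0.0651 to 0.0747 in control cells.

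*TJP1* encodes ZO-1, which binds claudins, occludin, JAM-A and cingulin. The gene (ENSG00000104067, chr15:29699367-29968915, minus strand) had 1613, 1761 and 1669 normalized counts in control replicates 1 to 3, against 1341, 1337 and 1362 in clones 1 to 3. Every clone lay below every control library, and the clones lay very close to each other. The average was 1681 ± 74.9 (SD, n = 3) for control and 1347 ± 13.2 (SD, n = 3) for KO libraries, a KO level of 0.801 of control. The clones were at -0.32 on the log2 scale (SE 0.060, 95% interval -0.46 to -0.18, adjusted p = 0.0157, limma), short of the fold needed for a call. The adjusted p was 0.0185 to 0.0253 without any 1 of the clones, and 0.0668, 0.0861 and 0.084 without control replicates 1, 2 and 3. The range over the 3 clones was 0.026 on the log2 scale, and 99% of all tested genes had a wider one. The clones had a coefficient of variation of 0.98%, below the counting error of 2.6% of a KO value. The narrow range therefore does not measure how alike the clones are.

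*TJP3* encodes ZO-3, a ZO protein restricted to epithelia. The gene (ENSG00000105289, chr19:3708362-3750813, plus strand) had 27, 21 and 22 reads in control replicates 1 to 3, against 20, 50 and 27 in clones 1 to 3. As normalized counts these were 30.9, 20.5 and 25.2 against 19.8, 43.2 and 24.3, with clone 2 high and the other clones within or just below the control range. The log2 fold change was 0.12 (SE 0.34, 95% interval -0.67 to 0.91, adjusted p = 0.841, limma), and counting error alone was 20.7% of a control value, so no change of moderate size was detectable at this depth. Its end overlaps *APBA3* on the opposite strand, and the strand setting of the counting is not given in the sources used here. Within each library the ratio of *TJP3* to *TJP1* was 0.0191, 0.0117 and 0.0151 in control cells and 0.0147, 0.0323 and 0.0178 in the clones. The groups overlapped (exact permutation p = 0.5, two-sided), and *TJP1* was far more abundant than *TJP3* in every library, also per kb of exon, where the ratio did not exceed 0.0922.

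**Figure D2:**
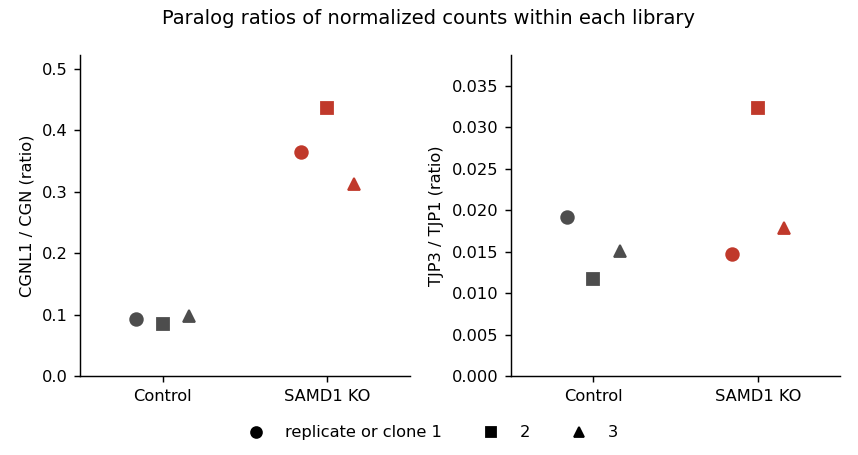
Ratio of *CGNL1* to *CGN* and ratio of *TJP3* to *TJP1*, computed within each library from normalized counts, on y axes that start at 0; each point is 1 library, control replicates in grey and clones in red. The *CGNL1* to *CGN* ratio separates the groups, from 0.0977 or less in control cells to 0.312 or more in the clones, whereas the *TJP3* to *TJP1* ratio overlaps.

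Occludin, tricellulin and MARVELD3 share the MARVEL domain, a bundle of membrane-spanning helices. Tricellulin gathers where 3 cells meet, and occludin runs along the contacts between cell pairs. None of their genes was called, and each varied between clones more than most genes did.

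*MARVELD2* (ENSG00000152939, chr5:69415065-69444330, plus strand) had 52.6, 46.0 and 64.1 normalized counts in control replicates 1 to 3, against 20.8, 26.8 and 43.2 in clones 1 to 3. All clones lay below all control libraries, with clone 3 close to the lowest of them. The average was 54.2 ± 9.2 (SD, n = 3) for control and 30.2 ± 11.6 (SD, n = 3) for KO libraries, with a log2 fold change of -0.87 (SE 0.30, 95% interval -1.58 to -0.17, adjusted p = 0.103, limma). It rested on 46 to 56 reads in control libraries and 21 to 48 in KO libraries. Without clone 3 the log2 fold change was -1.15 (adjusted p = 0.027, limma), which met the criteria for a call. It was -0.64 (adjusted p = 0.147) without clone 1 and -0.82 (adjusted p = 0.167) without clone 2 (limma), which did not.

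*OCLN* (ENSG00000197822, chr5:69492292-69558104, plus strand) had 366, 391 and 369 normalized counts in control replicates 1 to 3, against 369, 260 and 459 in clones 1 to 3. Clone 1 lay within the control range, clone 2 below it and clone 3 above it. The log2 fold change was -0.088 (SE 0.20, 95% interval -0.55 to 0.37, adjusted p = 0.802, limma), and it was 0.13 without clone 2.

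The 2 genes are neighbours, 47961 bases apart, and the value of clone 2 at this place moved with that of the surrounding genes. Of the 40 tested neighbours between 65517766 and 74722647 on chromosome 5, all 40 lay below the control mean in clone 2, against 23 in clone 1 and 26 in clone 3. Their median log2 difference from control was -0.66 in clone 2, -0.045 in clone 1 and -0.077 in clone 3. With the median of the neighbours removed from each library, *OCLN* was at 0.021, 0.14 and 0.37 in clones 1 to 3, and its log2 fold change became 0.18 (adjusted p = 0.321, limma). *MARVELD2* was then at -1.30, -0.33 and -0.25, with a log2 fold change of -0.63 (SE 0.31, adjusted p = 0.208, limma). The number of copies of this stretch of chromosome was not measured in these libraries.

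**Figure D3:**
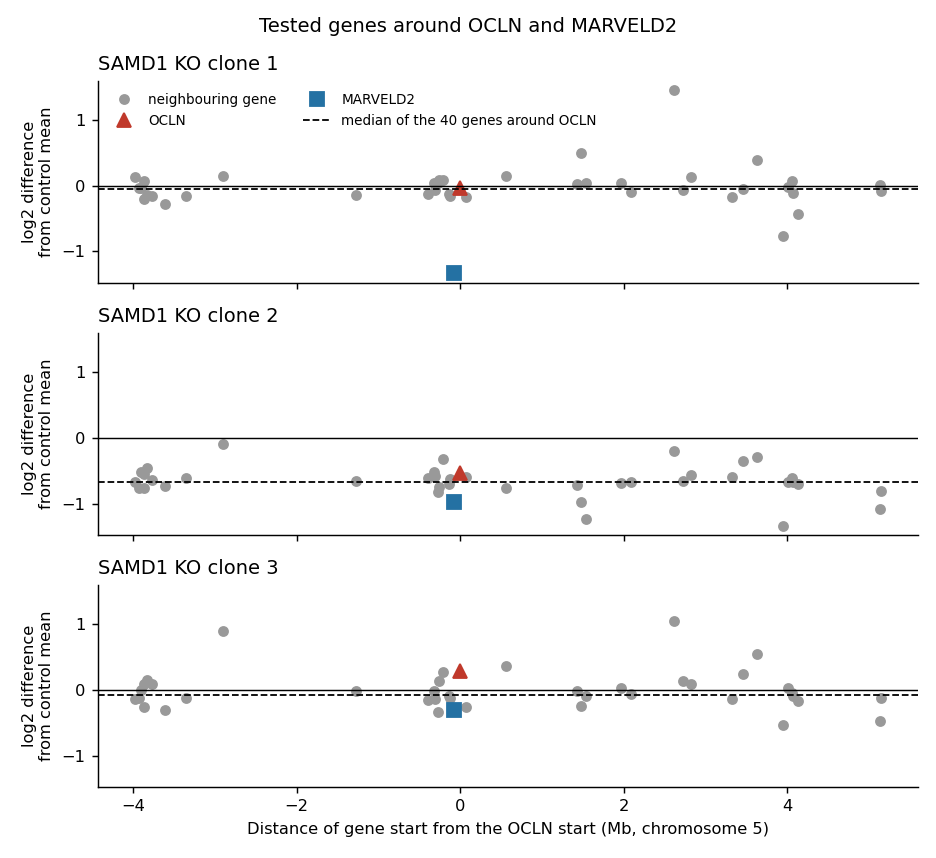
Log2 difference of each tested gene from the control mean (y axis) against its distance from the *OCLN* start in Mb (x axis) on chromosome 5, 1 panel per *SAMD1* KO clone; *OCLN* and *MARVELD2* are marked, and the dashed line is the median of the 40 neighbours. All neighbours are below 0 in clone 2, with a median of -0.66, and they scatter around 0 in clones 1 and 3.

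*MARVELD3* (ENSG00000140832, chr16:71626161-71642114, plus strand) had 50.3, 58.7 and 53.8 normalized counts in control replicates 1 to 3, against 28.7, 44.9 and 50.4 in clones 1 to 3. Clone 1 was low and clone 3 reached the lowest control library. The log2 fold change was -0.42 (SE 0.25, 95% interval -1.003 to 0.16, adjusted p = 0.300, limma), and it moved to -0.18 without clone 1 and to -0.58 without clone 3. *MARVELD3* was below the control mean in all 3 clones, as were *CGN*, *TJP1* and *MARVELD2*. Its 3′ end overlaps *PHLPP2* on the opposite strand, so reads there could belong to either gene.

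*F11R* encodes JAM-A, an adhesion molecule with immunoglobulin domains that binds ZO-1 and PAR3. The gene (ENSG00000158769, chr1:160995211-161021343, minus strand) had 623, 587 and 588 normalized counts in control replicates 1 to 3, against 287, 234 and 605 in clones 1 to 3. Clones 1 and 2 were far below the control libraries and clone 3 lay among them. The clones stood at -1.06, -1.35 and 0.015 on the log2 scale against the control mean, a range of 1.37, and 3.77% of all tested genes had a wider one (median range 0.29). The log2 fold change was -0.80 (SE 0.32, 95% interval -1.54 to -0.056, adjusted p = 0.144, limma). Without clone 3 it was -1.21 with an adjusted p of 0.00267 (limma), past the criteria for a call, whereas it was -0.67 (adjusted p = 0.229) without clone 1 and -0.52 (adjusted p = 0.267) without clone 2. The neighbours of *F11R* had medians of -0.007, -0.029 and 0.013 in the 3 clones, so its split between clones was not shared with them. A readthrough gene on the same strand overlaps *F11R* in GENCODE 44 and is not a row of the values, so reads shared with it are uncertain.

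*PARD3* encodes PAR3, the scaffold that brings PAR6 and atypical protein kinase C to the junction. The gene (ENSG00000148498, chr10:34109560-34815325, minus strand) had 2987, 2990 and 2993 normalized counts in control replicates 1 to 3, against 3117, 2852 and 3153 in clones 1 to 3. The clones lay on both sides of the control libraries. The log2 fold change was 0.023 (SE 0.057, 95% interval -0.11 to 0.16, adjusted p = 0.825, limma). At a control mean of 2989.9 ± 3.2 (SD, n = 3) and a KO mean of 3040.4 ± 164 (SD, n = 3) it had the narrowest interval of the 9 genes. The control coefficient of variation of 0.11% was below the counting error of 1.9% of a control value, so that SD does not measure spread between cultures.

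**Figure D4:**
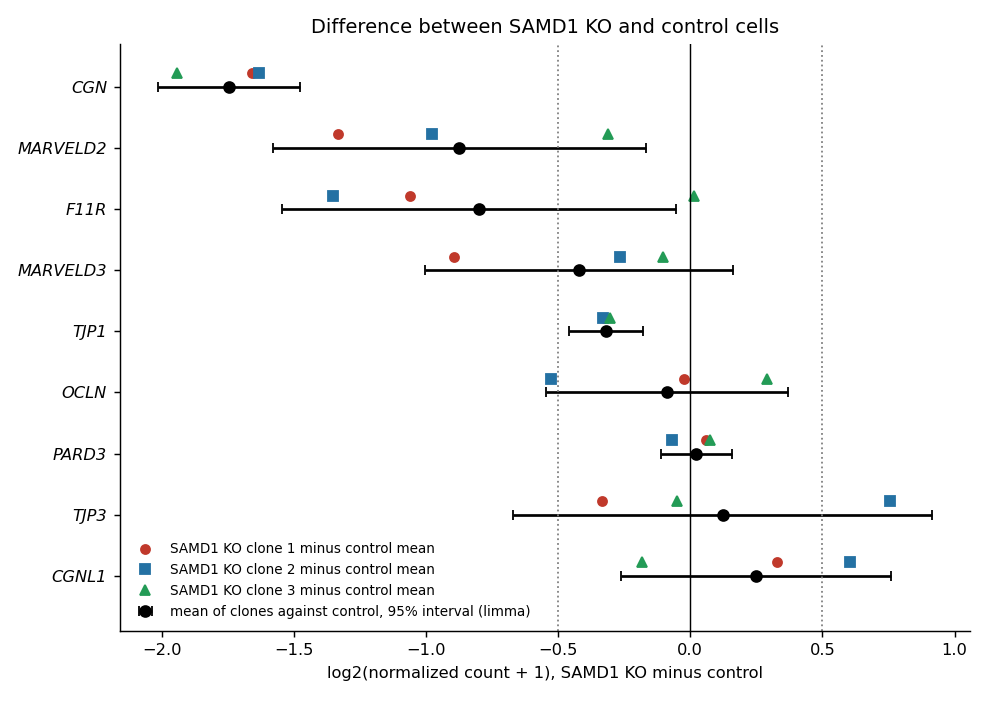
Difference of log2(normalized count + 1) between *SAMD1* KO and control cells for the 9 genes; coloured points are single clones against the control mean, black points are the limma estimates with 95% intervals, and dotted lines mark 0.5 in either direction. The 3 clones of *TJP1* lie together, and those of *CGN* all lie at -1.63 or lower. Those of *F11R*, *TJP3*, *MARVELD2*, *OCLN*, *MARVELD3* and *CGNL1* are spread widely.

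The members also differed in how much the clones varied. On the log2 scale the range over clones was 0.31 for *CGN*, and 46.6% of all tested genes had a wider one. For *TJP3*, *MARVELD2*, *OCLN*, *MARVELD3* and *CGNL1* it was 1.09, 1.02, 0.82, 0.79 and 0.79, with 6.57%, 7.65%, 11.8%, 12.6% and 12.7% of tested genes wider. *PARD3* had a range of 0.14, and 79% of tested genes had a wider one. Counting error was 17.6% of a KO value for *TJP3* and 17.3% for *MARVELD2*, against 4.9% for *F11R*, whose KO values had a coefficient of variation of 53.5%.

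Per kb of exon, the order of levels in control cells was led by *PARD3* at 407 ± 0.44 (SD, n = 3) normalized counts per kb, followed by *TJP1* at 149 ± 6.6, *CGN* at 130 ± 9.6, *F11R* at 118 ± 4.1 and *OCLN* at 33.3 ± 1.2. The libraries of *TJP1* and *CGN* did not overlap in this order, whereas those of *CGN* and *F11R* did. The low end held *MARVELD2* at 10.1 ± 1.7, *CGNL1* at 9.09 ± 0.34, *MARVELD3* at 8.55 ± 0.66 and *TJP3* at 6.44 ± 1.3 normalized counts per kb. *MARVELD2*, *CGNL1* and *MARVELD3* overlapped and could not be ordered. In KO cells *CGN* stood at 38.7 ± 4.5 normalized counts per kb, near *OCLN* at 32.2 ± 8.8, with overlapping libraries. By mean, *PARD3* (414 ± 22.4) and *TJP1* (119 ± 1.2) kept their ranks, and *F11R* was at 74.2 ± 39.7. The KO libraries of *TJP1* and *F11R* overlapped, with *F11R* at 119.6 in clone 3 and *TJP1* at 118.5, 118.2 and 120.4 in clones 1 to 3. Exon length was the union of all annotated exons of a gene.

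The genes whose libraries followed *CGN* most closely were *LIMK2*, *C2CD3* and *SH2D3A*, with Pearson r of 0.998, 0.997 and 0.996 over the 6 libraries. They were taken as the 3 highest among 11447 genes with a mean of at least 50 normalized counts, of which 17 had r above 0.99. With 2 groups that lie apart, such values mostly describe the difference between the groups. Their log2 fold changes were -0.81, -1.01 and -1.63.

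The wider junction machinery was read from 5 lists arranged by role, 68 tested genes in all. Of these, 5 were called higher and 2 lower, against 5.77% and 2.08% of all tested genes. The 2 called lower were *LSR* and *CXADR*. The median difference of the 68 genes was 0.047 on the log2 scale. The same shares of all tested genes stand beside the calls in each list below. At an unadjusted p below 0.05 in limma, 13.5% of all tested genes were lower. The share that was higher at that level is not given here, so counts of higher genes at it cannot be weighed.

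Of the scaffolds and adaptors, 13 of 14 were tested, 1 was called higher and 0 lower (lower also 0 with edgeR and 0 with DESeq2). The median was 0.095 on the log2 scale. At an unadjusted p below 0.05 in limma, 3 were higher and 1 was lower. The one that rose was *MAGI1*, a multi-PDZ scaffold, from 1075, 1069 and 1105 normalized counts in control cells to 1804, 1826 and 1758 in the clones (log2 fold change 0.73, adjusted p = 0.000698, limma). *CASK*, a scaffold kinase that binds junction proteins, had a log2 fold change of 0.50 (adjusted p = 0.0026, limma), just under the cut-off. Its neighbours on the X chromosome had medians of 0.39, 0.41 and 0.44 in the clones, and with these removed it was at 0.091. *AMOTL2*, an angiomotin-family scaffold, was at -0.43 (adjusted p = 0.0324, limma).

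Of the single-pass membrane proteins, 9 of 14 were tested, with 1 called higher and 2 lower and a median of 0.17. *LSR*, the receptor that brings tricellulin to the corners of cells, fell from 3358, 3561 and 3148 normalized counts to 2364, 2188 and 2318 in the clones (log2 fold change -0.55, adjusted p = 0.00297, limma). *CXADR*, the coxsackievirus and adenovirus receptor, fell from 643, 656 and 690 to 498, 324 and 327 (log2 fold change -0.82, adjusted p = 0.0225, limma). *JAM2*, a relative of JAM-A, was called higher, from 51.5, 46.0 and 52.7 to 71.2, 82.9 and 108 normalized counts (log2 fold change 0.77, adjusted p = 0.0461, limma), and among fits that left out 1 library the call held without clone 1 and was lost without any other one, controls included.

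None of the 18 tested of 20 polarity genes was called (2 higher and 4 lower at an unadjusted p below 0.05 in limma, 0 calls with edgeR and 1 lower with DESeq2), with a median of -0.008. The smallest p-values belonged to *PALS1*, a Crumbs-complex scaffold (log2 fold change -0.25, adjusted p = 0.0266, limma), *PARD3B*, the relative of *PARD3* (0.45, adjusted p = 0.0319), and *LLGL2*, a basolateral polarity gene (-0.64, adjusted p = 0.080). The neighbours of *PARD3B* had medians of 0.21, 0.092 and 0.19 in the clones, and with these removed it was at 0.29 (adjusted p = 0.128, limma). With the median of its own neighbours removed, *LLGL2* was at -0.63 (adjusted p = 0.0358, limma), past the criteria for a call.

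Among the junction-bound GTPase regulators and ZO-1 partners, 18 of 18 were tested, 3 were called higher and 0 lower, with a median of -0.004. At an unadjusted p below 0.05 in limma, 3 were higher and 5 were lower. *MYH14*, a nonmuscle myosin heavy chain, was at 1593, 1773 and 1537 normalized counts in control cells and 2709, 3164 and 3119 in the clones (log2 fold change 0.87, adjusted p = 0.00144, limma). *PLEKHA7*, an adherens junction protein that binds paracingulin, rose by 0.77 on the log2 scale (adjusted p = 0.00557, limma), and *MYLK*, myosin light chain kinase, named because it was called, rose by 0.55 (adjusted p = 0.0238), a call that was lost without clone 1 or without clone 2. *ARHGAP17*, a GTPase-activating protein, was at -0.38 (adjusted p = 0.00959, limma).

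Of 23 claudins 10 were tested and none was called (1 higher and 2 lower at an unadjusted p below 0.05 in limma, 0 calls with edgeR and 0 with DESeq2). Their median log2 fold change was 0.097. The smallest p-values belonged to *CLDN12* (-0.20, adjusted p = 0.0932, limma), *CLDN9* (1.146, adjusted p = 0.108) and *CLDN15* (-0.37, adjusted p = 0.128). *CLDN9* rested on 9, 11 and 10 reads in control replicates 1 to 3, and 47, 23 and 19 in clones 1 to 3. Its clones were at 2.00, 0.82 and 0.61 against the control mean on the log2 scale.

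**Figure D5:**
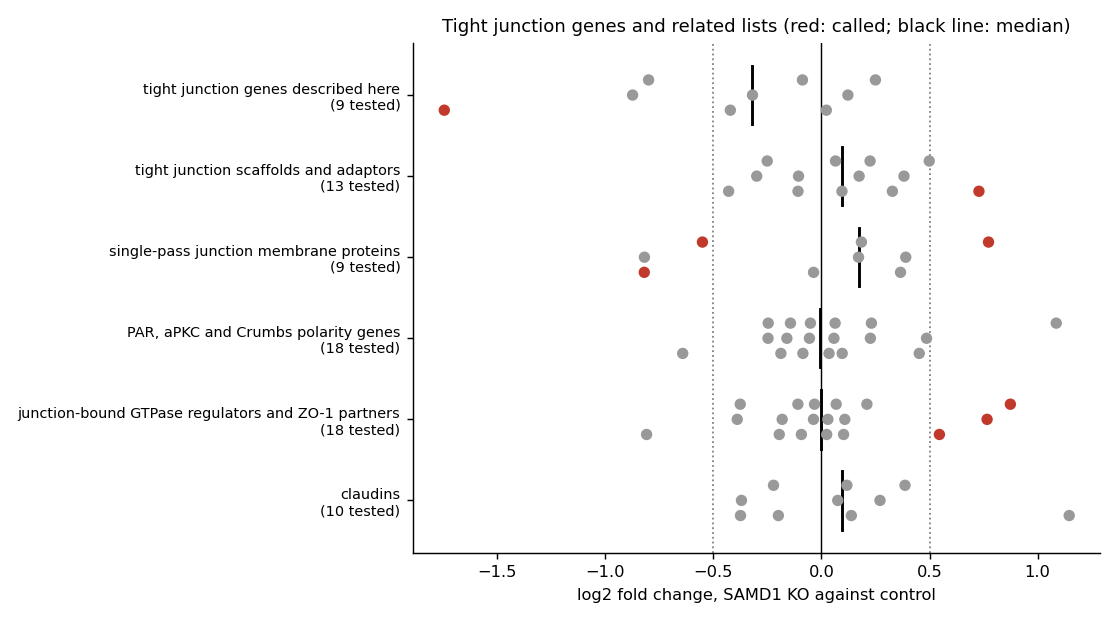
Difference of log2(normalized count + 1) between KO and control cells (x axis) for the 9 genes and for each tested gene of the 5 related lists (rows); red points are called genes, grey points are not, the black bar in each row is its median and dotted lines mark 0.5 in either direction. *CGN* at -1.74 lies lowest in its row, and the medians of the 5 lists lie between -0.008 and 0.17.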

How the data were processed

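RNA was taken from 3 replicates of control PaTu8988t cells and 3 *SAMD1* KO clones and sequenced from stranded mRNA libraries. The authors aligned reads to the human transcriptome (GenCode 43) and, per the labels, counted them with featureCounts (hg38) and normalized them with DESeq2. The strand setting is not given in the sources used here. The deposited values are a signal in normalized counts: each library's reads on a gene over its 1 size factor. All values were whole multiples of 1 step (100%, within 0.001 read), so whole reads were recovered. The authors' comparison table, with their mean, fold change, standard error, statistic and p-values, was not used. Unused sample columns numbered 0.

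Groups followed the labels. The 9 genes and all lists were chosen with earlier results of these data known. Log2(normalized count + 1) was fitted with limma 3.58.1 (lmFit, eBayes with trend, R 4.3.3) on 12773 of 20347 genes with a mean of at least 10; 3871 had no reads. p-values were two-sided and Benjamini-Hochberg adjusted over the tested genes. A gene was called at an unadjusted p below 0.01 if its log2 fold change also passed 0.5 in size, as in the study's methods. Single values had an exact permutation test. From each related list the 3 genes with the smallest p are named, with the targeted gene; 1 further gene of this rule and the share that needs it are not reported here; *MYLK* was named after its value was seen. Genes were placed on GENCODE 44 (183 by an older symbol, 99.3% of tested genes placed).

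Other settings were a pseudocount of 0.1 or 10, a filter at a mean of 50 or none, the replicate number as a block, 75th percentile scaling, removal of the median of about 40 neighbouring genes, an adjusted p below 0.05, each library left out, and edgeR 4.0.16 or DESeq2 1.42.0 on the recovered reads, which called 779 higher and 247 lower, and 830 higher and 265 lower (limma 737 and 266). Tested on simulated counts for 12773 genes with 200 changed 2-fold, limma recovered 199 with 14 false calls, edgeR 199 with 13 and DESeq2 197 with 0. The simulation gave every gene the same small spread beyond counting error, in KO as in control libraries. Its figures therefore do not cover genes that vary widely between clones. Python 3.11.15, numpy 2.4.6, pandas 2.3.3 and SciPy 1.17.1 served the rest.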

Additional observations from a re-analysis of the deposited data

How the results depend on the processing

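*CGN* was called lower under every alternative that was run. The count of members called lower was 1, except 2 with an adjusted p below 0.05 as the criterion, which added *TJP1* (-0.32), and 1 to 3 with 1 library left out: without clone 3, *MARVELD2* (-1.15) and *F11R* (-1.21) were added. Signs of small differences turned for *TJP3* (-0.019 without control replicate 2 and -0.19 without clone 2, range -0.19 to 0.35 with 1 library left out), *OCLN* (0.18 with the median of its neighbours removed and 0.13 without clone 2, range -0.28 to 0.13) and *PARD3* (-0.0041 without clone 3, range -0.0041 to 0.068). In the related lists, the scaffolds called higher were 2 with edgeR or DESeq2 and 1 to 2 with 1 library left out (2 without control replicate 3 or clone 2), and the scaffolds called lower 0 to 1. With 1 library left out, the single-pass membrane genes called higher were 0 to 1, the polarity genes higher 0 to 1 (1 without clone 1 or clone 3) and lower 0 to 1, the GTPase regulators and ZO-1 partners lower 0 to 2 and the claudins lower 0 to 1. Those rises in counts of lower genes came without clone 2. The single-pass membrane genes called lower were 3 without clone 3, against 2, and the GTPase regulators and ZO-1 partners called higher were 2 without clone 1 or clone 2, against 3. The polarity genes called lower were 1 with DESeq2. The cause of these shifts was not tested. With the replicate number as a block, 1 member was called lower and 0 higher, as without it. Deviations of same-numbered libraries correlated at 0.039, 0.134 and 0.032, and those of other pairs at -0.074 to 0.036. Each KO library correlated best with the control library of its own number. Control replicate 3 correlated best with clone 1 (0.036). What same-numbered libraries share beyond the number was not tested. *TJP3*, *MARVELD2* and *MARVELD3* rest on 60 reads or fewer per library, which limits what can be seen in them.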
